A study of Rattus norvegicus with 15 samples.

Results

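The genes described here are those of peroxisome biogenesis and peroxisomal oxidation in the livers of rats given an inhibitor of acetyl-CoA carboxylase. They were chosen by name: every gene whose symbol starts with Pex followed by a digit, and 25 listed genes of peroxisomal metabolism and of the peroxisomal membrane. Of the 14217 genes that a probe set with a single gene symbol represented on the array, 37 met this rule, 14 of them Pex genes. The listed gene Acaa1a, a peroxisomal thiolase, was not among them, because the probe set that carries its symbol also carries that of Acaa1b. Of the 37 genes, 34 passed a filter on dim probe sets (at least 5 of 15 arrays above the median of all values, a log2 value of 6.10) and were tested. The other 3 were Abcd2, a transporter of very long acyl-CoAs, Agps, an enzyme of ether lipid synthesis, and Pex5l, a relative of Pex5 known from the brain.

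The livers came from male Sprague Dawley rats, aged 7 weeks when the study began, and all groups ate a high fat diet with 59% of energy from fat. The rats were gavaged once a day over 6 weeks with PF-04923503 at 10 mg/kg, with PF-04923503 at 30 mg/kg, or with the vehicle, 0.5% methylcellulose. Each group had 5 liver samples, 1 Affymetrix rat array each, 15 in all. No group on an ordinary diet was analysed here, and since no label states whether samples of a group are separate rats, the p-values cover only the spread seen among these arrays, which may be technical. Values are log2 expression as the authors summarised and normalised it, and a difference of 1 is a doubling. All comparisons with vehicle share the same 5 vehicle samples. The comparisons ask whether the transcripts differ between each dose and vehicle, between the doses, and between both doses together and vehicle.

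Peroxisomes are organelles that shorten very long and branched fatty acids and bile acid precursors, break down phytanic acid, start ether lipid synthesis and destroy the hydrogen peroxide that their oxidases make. Their matrix proteins are imported from the cytosol by the receptors Pex5 and Pex7 through a docking complex in the membrane, while Pex3, Pex16 and Pex19 insert membrane proteins and the Pex11 family shapes and divides the organelle. In rodent liver many of these genes are targets of PPAR-alpha, a nuclear receptor that fatty acids activate and whose synthetic agonists make peroxisomes proliferate. Acetyl-CoA carboxylase makes malonyl-CoA, the building block of fatty acid synthesis and elongation and an inhibitor of fatty acid entry into mitochondria.

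The peroxisome genes differed little between treated and vehicle livers, and no member passed the test in any comparison. At 10 mg/kg against vehicle, 0 of 34 were called at an adjusted p under 0.05 (limma with Benjamini-Hochberg adjustment over 9540 genes), where 0.105% of all genes were called. The count was also 0 of 34 at 30 mg/kg against vehicle and at 30 mg/kg against 10 mg/kg, where 0% of all genes were called, and for both doses together against vehicle, where 0.147% were. Without adjustment, 5 members had a p under 0.05 at 10 mg/kg, or 14.7% against 13.3% of all genes, and 3 had one at 30 mg/kg, or 8.82% against 16.1%. At 10 mg/kg 3 of these members were higher than vehicle (4.49% of all genes) and 2 lower (8.79%), and at 30 mg/kg 0 were higher (5.27%) and 3 lower (10.8%). The shares of members were close to or below those of all genes, apart from the 3 higher ones at 10 mg/kg, Nudt7, Abcd3 and Pex3, which make up 8.82%. In bulk tissue, fewer cells of a type and less RNA per cell cannot be told apart.

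The width of the intervals bounds the differences. At 10 mg/kg the 95% confidence interval of the difference from vehicle lay within a change of 1.5-fold either way for 29 of 34 members (85.3%, against 92.6% of all genes), and at 30 mg/kg for 32 of 34 (94.1%, against 93% of all genes). The exceptions were Acox2, Nudt7, Nudt19, Pex11a and Pxmp4 at 10 mg/kg, and Pex11a and Pxmp4 at 30 mg/kg. These intervals are not adjusted for the number of genes. Over the members the log2 differences had a median of 0.0383 for 10 mg/kg and 0.00222 for 30 mg/kg, beside -0.0202 and -0.0319 over all genes tested. In mean, 23 of 34 members were higher at 10 mg/kg than in vehicle, against 41.8% of all genes, and 18 of 34 were higher at 30 mg/kg, against 38% of all genes.

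**Figure D1:**
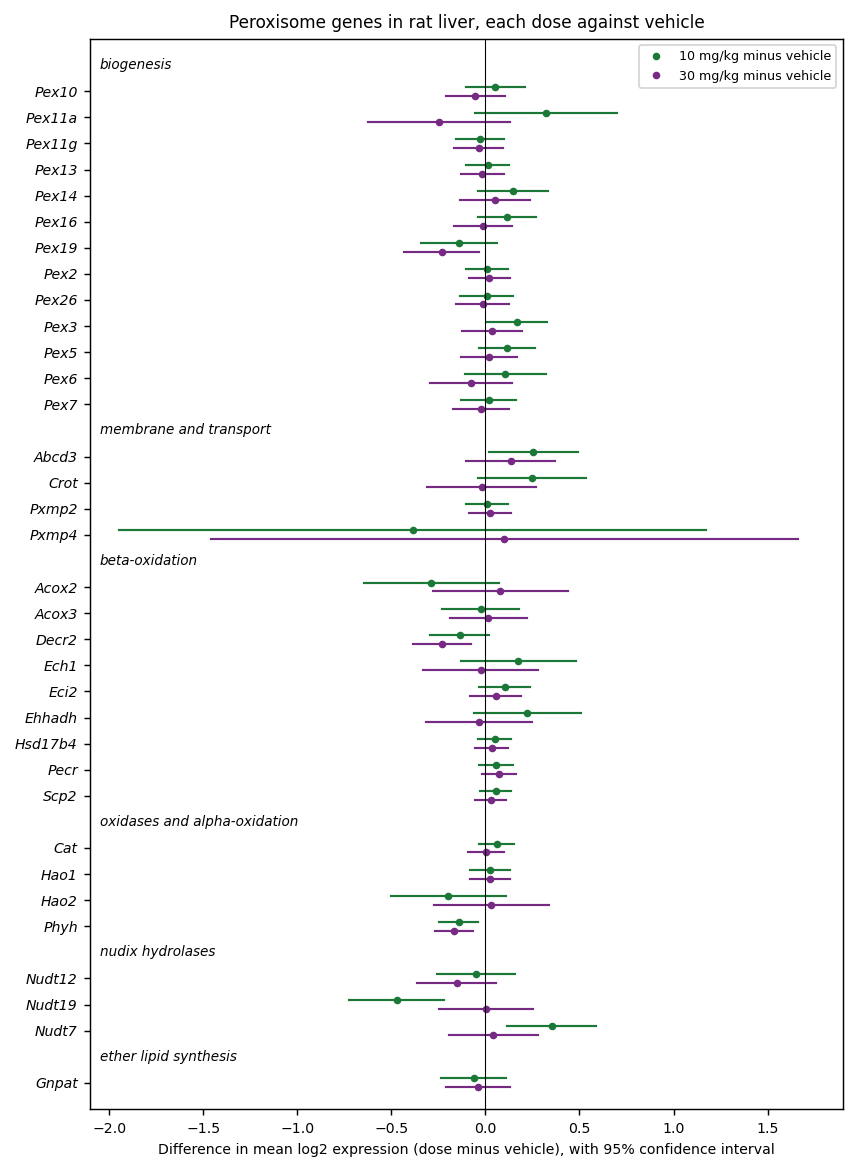
Difference in mean log2 expression from vehicle (horizontal axis) for the 34 tested peroxisome genes, grouped by role, at 10 mg/kg (upper bar of each pair) and 30 mg/kg (lower bar). Bars are 95% confidence intervals from limma with 5 arrays per group. Differences at 10 mg/kg ran from -0.47 (Nudt19) to 0.35 (Nudt7), those at 30 mg/kg from -0.25 (Pex11a) to 0.13 (Abcd3), and the bars of Pxmp4 are the widest.

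Markers of hepatocytes were bright in every sample. Of 8 hepatocyte markers 7 passed the filter, and the log2 of their summed values lay between 17.34 and 17.36 at 10 mg/kg, 17.32 and 17.36 at 30 mg/kg, and 17.31 and 17.35 in vehicle. Of 8 macrophage markers 6 passed, and all 6 were lower in mean than in vehicle at both doses, with summed log2 values of 11.23 to 11.78 at 10 mg/kg, 10.95 to 11.90 at 30 mg/kg and 11.48 to 12.19 in vehicle. All 5 measured endothelial markers were also lower in mean at both doses, with medians of -0.28 at 10 mg/kg and -0.20 at 30 mg/kg on the log2 scale. Over all genes 58.2% were lower in mean at 10 mg/kg and 62% at 30 mg/kg, and no marker was called. Of 5 measured stellate cell and matrix markers, 5 were lower at 10 mg/kg and 3 at 30 mg/kg. The 2 measured blood markers and 2 of 3 lymphocyte and neutrophil markers were lower at both doses, and the 1 cholangiocyte marker was higher. The part of these cells in the differences below was not tested.

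The starts of 4 member genes are shown because these genes had the smallest p-values or the largest differences below: Phyh against vehicle, Nudt7 and Nudt19 at 10 mg/kg, and Pex11a between the doses. Each window runs from 250 bases before to 50 bases after the gene's start, 5′ to 3′ on the strand of the gene, from RefSeq (build GRCr8). Capitals mark the GC box GGGCGG on either strand, a frequent element of promoters, and would also mark AGGTCA, the single repeat that nuclear receptors such as PPAR-alpha bind in pairs. No AGGTCA stands in these 4 windows. The windows lie at chr17:78255596-78255895 for Phyh (minus strand), chr19:59034638-59034937 for Nudt7 (plus strand), chr1:97362920-97363219 for Nudt19 (minus strand) and chr1:143096442-143096741 for Pex11a (minus strand).
Phyh: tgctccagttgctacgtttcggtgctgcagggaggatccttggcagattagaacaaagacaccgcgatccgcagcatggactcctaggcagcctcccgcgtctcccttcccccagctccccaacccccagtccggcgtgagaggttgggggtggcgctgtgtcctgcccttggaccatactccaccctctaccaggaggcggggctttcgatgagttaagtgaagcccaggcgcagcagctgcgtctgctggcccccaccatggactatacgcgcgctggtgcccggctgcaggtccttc
Nudt7: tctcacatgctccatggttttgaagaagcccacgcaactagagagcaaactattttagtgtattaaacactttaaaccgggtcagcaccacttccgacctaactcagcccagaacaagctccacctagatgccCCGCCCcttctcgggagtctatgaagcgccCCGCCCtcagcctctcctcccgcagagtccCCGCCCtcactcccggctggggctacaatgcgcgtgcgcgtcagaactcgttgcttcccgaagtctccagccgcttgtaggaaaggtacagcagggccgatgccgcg
Nudt19: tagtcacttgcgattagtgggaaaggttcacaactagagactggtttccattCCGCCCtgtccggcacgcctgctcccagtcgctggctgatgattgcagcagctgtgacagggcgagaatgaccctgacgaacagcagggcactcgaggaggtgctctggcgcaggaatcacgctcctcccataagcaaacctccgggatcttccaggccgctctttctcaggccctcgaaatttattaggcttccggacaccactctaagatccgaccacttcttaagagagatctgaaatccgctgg
Pex11a: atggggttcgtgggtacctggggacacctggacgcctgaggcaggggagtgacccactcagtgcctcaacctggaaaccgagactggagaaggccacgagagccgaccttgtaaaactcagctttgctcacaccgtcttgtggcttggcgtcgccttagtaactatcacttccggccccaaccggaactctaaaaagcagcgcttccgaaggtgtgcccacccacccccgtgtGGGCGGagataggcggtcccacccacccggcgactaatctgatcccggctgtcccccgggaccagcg

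A window was found for 33 of the 37 genes. The missing ones are Ech1, Pex2, Pex5l and Pex6. Among the 31 tested members with a window, 22 held a GC box (71%), against 61.3% of 8909 windows of tested genes, and 4 held AGGTCA (12.9%), against 12.7%. Those 4 were Cat, Eci2, Hsd17b4 and Pex11g, and of the members not tested Abcd2 and Agps held it too, which makes 6 of 33 (18.2%), against 16.2% of all 33469 windows. A pair of AGGTCA repeats in the same direction with 1 base between them, the element that PPAR-alpha binds with its partner, was in 0 of 33 windows and in 0.0449% of those of tested genes. A looser pair of AGGNCA repeats, in which N is any base, was in 0 of 33 and in 0.393%. Both strands were searched, and the exact pair contains the single repeat AGGTCA while the looser pair need not. These matches describe the letters of the windows only.

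Phyh, the hydroxylase that begins the breakdown of phytanic acid by alpha-oxidation, stood lowest in p among the members when both doses were set against vehicle. Its log2 values were 13.81, 13.88, 13.80, 13.67 and 13.80 at 10 mg/kg, 13.79, 13.72, 13.72, 13.75 and 13.85 at 30 mg/kg, and 14.00, 13.86, 13.89, 13.97 and 13.95 in vehicle. The 30 mg/kg samples all lay below the vehicle samples, while 1 sample at 10 mg/kg lay above the lowest vehicle sample. The groups did not overlap in 2 of 34 members at 30 mg/kg, Phyh and Decr2, against 3.21% of all genes. The level of Phyh was 0.906-fold that of vehicle at 10 mg/kg (95% confidence interval 0.844 to 0.972, limma adjusted p = 0.245), 0.891-fold at 30 mg/kg (0.830 to 0.956, adjusted p = 0.160) and 0.898-fold over both doses (0.845 to 0.955, adjusted p = 0.111).

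A second probe set of Phyh gave somewhat larger differences. It averaged 13.31 ± 0.07 at 10 mg/kg and 13.30 ± 0.06 at 30 mg/kg, against 13.53 ± 0.09 in vehicle (SD, n = 5 each). On this probe set the samples of either dose all lay below those of vehicle, with a maximum of 13.37 at 10 mg/kg and 13.39 at 30 mg/kg and a minimum of 13.44 in vehicle. Over all genes, each on its brightest probe set, both doses together did not overlap vehicle in 0.608%. It gave log2 differences of -0.22 for 10 mg/kg and -0.23 for 30 mg/kg, with limma adjusted p = 0.117 and 0.114, and adjusted p = 0.0569 over both doses, still not under 0.05.

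Grouped with Phyh were Cat and the oxidases Hao1 and Hao2. Cat, the catalase that breaks down hydrogen peroxide, had 13.94, 13.93, 13.95, 14.02 and 14.08 at 10 mg/kg, 13.99, 13.83, 13.92, 13.91 and 13.98 at 30 mg/kg, and 13.90, 13.90, 13.92, 13.97 and 13.93 in vehicle. The groups overlapped, and its fold was 1.04 at 10 mg/kg (0.977 to 1.11) and 1.00 at 30 mg/kg (0.938 to 1.07). Hao1, the glycolate oxidase, had a log2 difference of 0.03 at either dose. Hao2, which oxidises long-chain hydroxy acids, varied more within groups, with differences of -0.20 (-0.50 to 0.11) at 10 mg/kg and 0.03 (-0.28 to 0.34) at 30 mg/kg.

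Of the 9 tested genes listed under beta-oxidation, 0 were called at either dose. In mean, 6 were higher than vehicle at each dose (66.7%, against 41.8% of all genes at 10 mg/kg and 38% at 30 mg/kg). Decr2, the reductase that lets unsaturated acyl-CoAs enter the cycle, had values of 11.51, 11.32, 11.15, 11.30 and 11.57 at 10 mg/kg, 11.33, 11.12, 11.32, 11.33 and 11.28 at 30 mg/kg, and 11.51, 11.40, 11.55, 11.53 and 11.53 in vehicle. All 30 mg/kg samples lay below all vehicle samples, while the 10 mg/kg samples spread over the range of both. Its level was 0.853-fold that of vehicle at 30 mg/kg (0.766 to 0.950, limma adjusted p = 0.179) and 0.909-fold at 10 mg/kg (0.817 to 1.01, adjusted p = 0.432). The difference between the doses was -0.09 on the log2 scale (-0.25 to 0.06).

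Ehhadh, the bifunctional enzyme of the classical inducible pathway and a well known PPAR-alpha target, had 12.64, 12.77, 12.14, 12.50 and 12.66 at 10 mg/kg, 12.28, 12.54, 12.46, 12.08 and 12.08 at 30 mg/kg, and 12.28, 12.27, 12.46, 11.99 and 12.60 in vehicle. At 10 mg/kg 4 samples lay at 12.50 or above and sample 3 at 12.14, and the groups overlapped. The fold was 1.17 at 10 mg/kg (0.959 to 1.42, limma adjusted p = 0.499) and 0.976 at 30 mg/kg (0.802 to 1.19, adjusted p = 0.922).

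The other beta-oxidation genes overlapped between all groups, and Acox2 had the largest difference in mean of them. Hsd17b4, the second bifunctional enzyme, differed from vehicle by 0.05 (-0.04 to 0.14) at 10 mg/kg and 0.03 (-0.05 to 0.12) at 30 mg/kg on the log2 scale. Scp2, whose long form is the thiolase for branched chains, differed by 0.05 and 0.03 at these doses, and its second probe set by 0.14 and 0.08. Pecr, an enoyl-CoA reductase listed with these genes, differed by 0.06 and 0.07, and Eci2, an enoyl-CoA isomerase, by 0.10 and 0.06. Ech1, a dienoyl-CoA isomerase, differed by 0.17 (-0.13 to 0.48) and -0.02 (-0.33 to 0.28). The acyl-CoA oxidases for branched chains and bile acid intermediates were Acox2, at -0.29 (-0.64 to 0.07) and 0.08 (-0.28 to 0.44), and Acox3, at -0.03 (-0.23 to 0.18) and 0.02 (-0.19 to 0.22).

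In the membrane and transport group, 0 of 4 tested genes were called. Abcd3, which brings branched acyl-CoAs and bile acid precursors into the organelle, had 11.05, 11.01, 10.75, 10.77 and 10.76 at 10 mg/kg, 10.66, 11.19, 10.80, 10.51 and 10.57 at 30 mg/kg, and 10.49, 10.64, 10.67, 10.55 and 10.69 in vehicle. On the brightest probe set of each gene, it was the 1 member of 34 in which the 10 mg/kg samples did not overlap the vehicle samples, against 2.44% of all genes. Phyh showed no overlap at 10 mg/kg either on its second probe set. The 30 mg/kg samples of Abcd3 overlapped both other groups. The fold was 1.19 at 10 mg/kg (1.01 to 1.40, limma adjusted p = 0.337) and 1.097 at 30 mg/kg (0.932 to 1.29, adjusted p = 0.571). Sample 2 at 30 mg/kg was the highest of all, and without it the log2 difference at 30 mg/kg was 0.02, beside 0.13.

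Crot, which moves medium chains onto carnitine for export to mitochondria, was very even at 10 mg/kg, where it averaged 12.87 ± 0.03, against 12.62 ± 0.22 in vehicle (SD, n = 5 each). Its samples at 30 mg/kg spread from 12.21 to 13.03. The difference from vehicle was 0.25 (-0.04 to 0.54) at 10 mg/kg and -0.02 (-0.31 to 0.27) at 30 mg/kg, and a second probe set gave 0.33 and 0.10. Pxmp2, a channel protein of the membrane, differed by 0.01 and 0.02.

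Pxmp4, a membrane protein of the peroxisome, varied more between samples than any other tested member. Its log2 values were 9.85, 7.69, 7.17, 9.71 and 10.74 at 10 mg/kg, 10.35, 10.52, 9.71, 9.38 and 7.62 at 30 mg/kg, and 10.40, 9.87, 10.02, 9.31 and 7.49 in vehicle. The low samples were numbers 2 and 3 at 10 mg/kg, number 5 at 30 mg/kg and number 5 in vehicle, and the whole range was 11.9-fold. The same 4 samples were low on the second probe set, at 6.76 and 6.61 for the 10 mg/kg samples, 7.14 at 30 mg/kg and 6.70 in vehicle, where the other samples lay between 7.75 and 9.19. The SD within groups was 1.29 and higher than that of 99.8% of all tested genes, and the difference from vehicle was -0.39 (-1.95 to 1.17) at 10 mg/kg and 0.10 (-1.46 to 1.66) at 30 mg/kg. This gene was chosen for description after its values were seen.

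**Figure D2:**
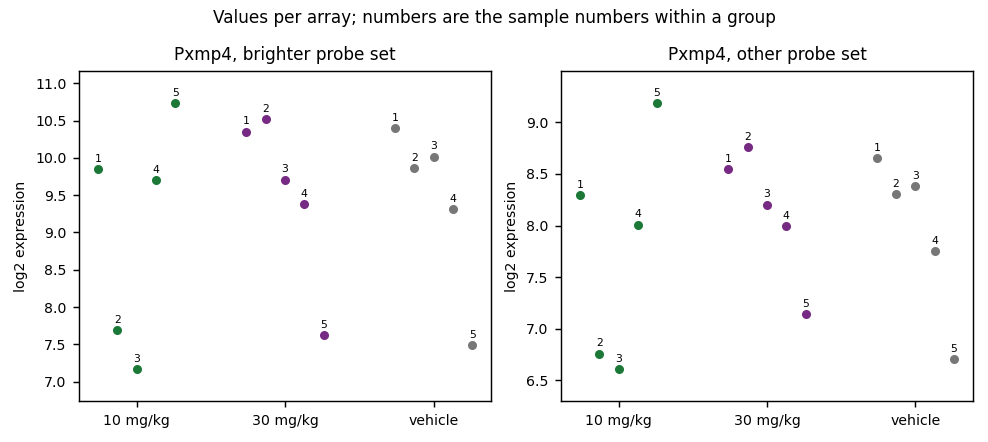
Log2 expression of Pxmp4 on each of the 15 arrays for the brighter probe set (left) and the other probe set (right), by group, with the sample number beside each point. On both probe sets samples 2 and 3 at 10 mg/kg, sample 5 at 30 mg/kg and sample 5 of vehicle lie low, from 7.17 to 7.69 on the left and from 6.61 to 7.14 on the right.

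Among the 13 tested Pex genes, 0 were called. In mean, 11 were higher than vehicle at 10 mg/kg (84.6%, against 41.8% of all genes) and 4 at 30 mg/kg (30.8%, against 38%). These genes share samples, so the counts are a description. Pex11a, the inducible member of the family that elongates and divides peroxisomes, had 9.50, 9.93, 9.20, 9.52 and 9.68 at 10 mg/kg, 9.01, 9.14, 9.30, 8.56 and 8.97 at 30 mg/kg, and 8.67, 9.10, 9.41, 9.46 and 9.58 in vehicle. The 10 mg/kg samples lay mostly high and the 30 mg/kg samples mostly low, and vehicle spread over both. The fold against vehicle was 1.25 at 10 mg/kg (0.964 to 1.63, limma adjusted p = 0.452) and 0.843 at 30 mg/kg (0.649 to 1.09, adjusted p = 0.514). A second probe set gave log2 differences of 0.33 and -0.31, beside 0.32 and -0.25.

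Of the genes that insert membrane proteins, Pex19, the cytosolic chaperone, had 8.31, 8.19, 8.12, 8.09 and 8.21 at 10 mg/kg, 8.20, 8.24, 8.16, 7.995 and 7.86 at 30 mg/kg, and 8.11, 8.43, 8.55, 8.11 and 8.43 in vehicle. Vehicle samples 1 and 4 lay among the treated samples and the other 3 above them. Its level was 0.907-fold at 10 mg/kg (0.790 to 1.04) and 0.852-fold at 30 mg/kg (0.741 to 0.978, limma adjusted p = 0.249). Pex3, its docking partner in the membrane, had a log2 difference of 0.17 (0.01 to 0.33) at 10 mg/kg and 0.03 (-0.12 to 0.19) at 30 mg/kg, with limma adjusted p = 0.355 and 0.858. Pex16 differed by 0.12 and -0.01.

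The import machinery had differences in mean of at most 0.15 in size. Pex5 and Pex7, the receptors for the C-terminal and N-terminal targeting signals, differed from vehicle by 0.12 and 0.02 at 10 mg/kg and by 0.02 and -0.02 at 30 mg/kg. The docking proteins Pex13 and Pex14 differed by 0.01 and 0.15 at 10 mg/kg and by -0.02 and 0.05 at 30 mg/kg. Pex2 and Pex10, parts of the ubiquitin ligase that recycles the receptors, Pex6, an ATPase that extracts them, and Pex26, its anchor, had differences between -0.08 and 0.11 over both doses. Pex11g, a second division factor, differed by -0.03 and -0.04.

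The nudix hydrolases held the largest differences at 10 mg/kg, in opposite directions. Nudt19, which splits coenzyme A and was described in mouse kidney, had 8.87, 8.92, 8.93, 9.43 and 8.91 at 10 mg/kg, 9.30, 9.72, 9.64, 9.49 and 9.28 at 30 mg/kg, and 9.46, 9.52, 9.44, 9.28 and 9.73 in vehicle. At 10 mg/kg 4 samples lay below every vehicle sample and sample 4 among them, while the 30 mg/kg samples covered nearly the same range as vehicle. The level was 0.721-fold that of vehicle at 10 mg/kg (0.606 to 0.858, limma adjusted p = 0.134) and 1.00-fold at 30 mg/kg (0.841 to 1.19, adjusted p = 0.994).

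Nudt7, the coenzyme A hydrolase of mouse liver peroxisomes, had 10.12, 10.44, 9.94, 10.07 and 10.36 at 10 mg/kg, 9.97, 9.95, 10.13, 9.58 and 9.74 at 30 mg/kg, and 9.78, 9.72, 10.01, 9.73 and 9.91 in vehicle. At 10 mg/kg 4 samples lay above every vehicle sample. Its fold was 1.28 at 10 mg/kg (1.08 to 1.503, limma adjusted p = 0.221) and 1.03 at 30 mg/kg (0.875 to 1.21, adjusted p = 0.881). Nudt12, which hydrolyses NADH, differed by -0.05 and -0.15. Gnpat, the acyltransferase that starts ether lipid synthesis, differed by -0.06 and -0.04.

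**Figure D3:**
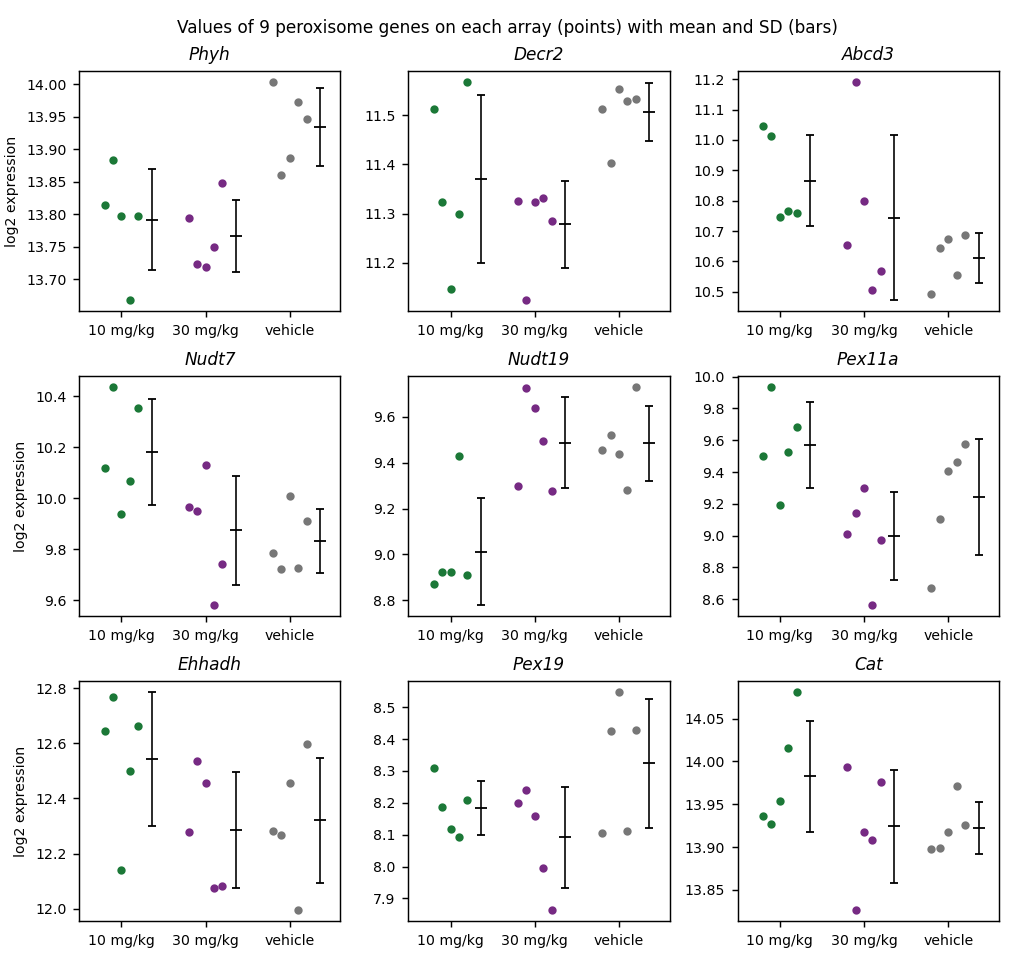
Log2 expression of 9 peroxisome genes on each array at 10 mg/kg, 30 mg/kg and in vehicle. Points are arrays in the order of their sample numbers, and bars are the mean and SD of 5 arrays; each panel has its own axis, which does not start at 0. The 30 mg/kg points of Phyh and Decr2 and the 10 mg/kg points of Abcd3 do not overlap vehicle.

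The doses were compared directly, at 30 mg/kg against 10 mg/kg. The means come from the same treated samples as above, and the vehicle samples enter through the shared estimate of the spread. No member was called. Members with an unadjusted p under 0.05 numbered 4 of 34, against 5.82% of all genes, of which 2 were higher (2.57% of all genes) and 2 lower (3.25%). The groups overlapped in every member, against 0.943% of all genes whose groups did not. Of the 34, 9 were higher in mean at 30 mg/kg and 25 lower, where 45.6% of all genes were higher, and of the 13 Pex genes 1, Pex2, was higher and 12 lower. Second probe sets gave the opposite sign for Pex2 (-0.06, beside 0.01) and for Pex16 (0.04, beside -0.13). Of 33 tested genes of other peroxisomal proteins, described below, 8 were higher in mean at 30 mg/kg (24.2%) and 25 lower (75.8%), much as among the members. The median log2 difference was -0.0445 over the members, -0.0962 over the Pex genes, -0.0572 over those 33 genes and -0.00795 over all genes. Members share samples and are not independent of each other, so these counts are a description.

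Pex11a at 30 mg/kg had 0.674-fold its level at 10 mg/kg (0.519 to 0.875, limma adjusted p = 0.851). Nudt19 was at 1.39-fold (1.17 to 1.65) and Nudt7 at 0.807-fold (0.686 to 0.950), each with adjusted p = 0.851. Acox2 had a log2 difference of 0.37 (0.01 to 0.72), Crot of -0.27 (-0.56 to 0.02) and Ehhadh of -0.26 (-0.54 to 0.03). Phyh had a difference of -0.02 (-0.13 to 0.08) between the doses.

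**Figure D4:**
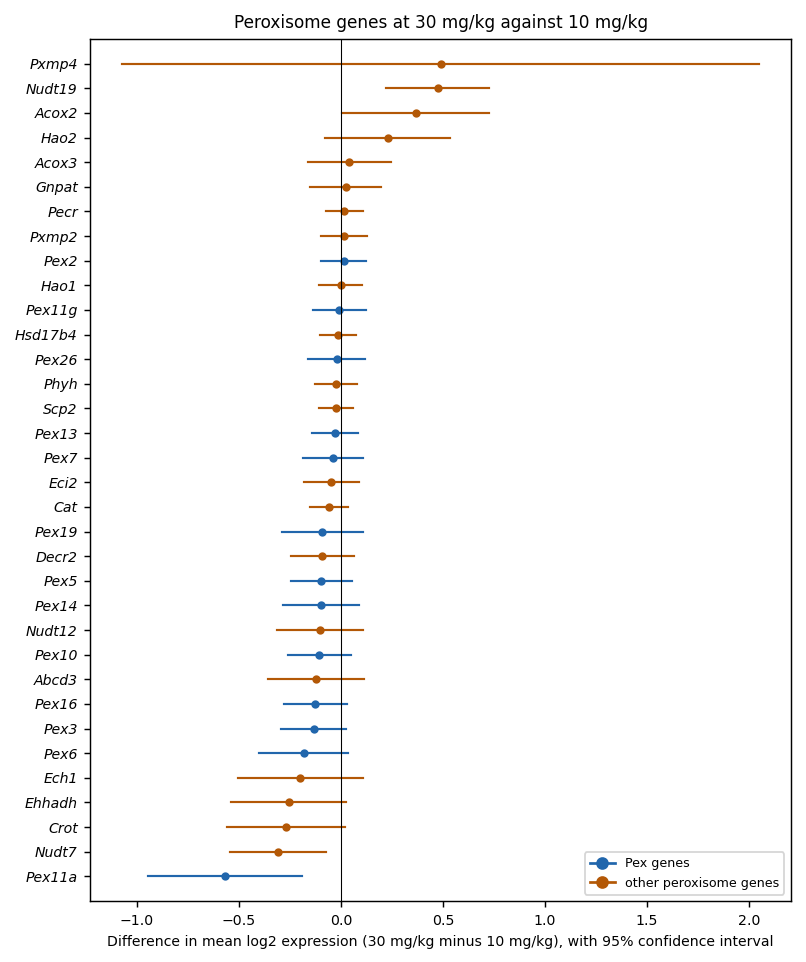
Difference in mean log2 expression at 30 mg/kg minus 10 mg/kg (horizontal axis) for the 34 peroxisome genes, sorted by size, with 95% confidence intervals from limma (n = 5 per group). Pex genes are blue and the others orange. The differences ran from -0.57 (Pex11a) to 0.49 (Pxmp4), and 12 of 13 Pex genes lay below 0, where 54.4% of all genes did.

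With both doses set against vehicle, 4 of 34 members had an unadjusted p under 0.05, against 17.7% of all genes, and all 4 were lower: Phyh, Decr2, Nudt19 and Pex19. Over all genes 12.4% were lower and 5.30% higher at that p. The pooled level of Decr2 was 0.881-fold that of vehicle (0.803 to 0.967, limma adjusted p = 0.175). That of Pex19 was 0.879-fold (0.779 to 0.991, adjusted p = 0.252) and that of Nudt19 0.850-fold (0.731 to 0.988, adjusted p = 0.250). Nudt19 was lower in mean at 10 mg/kg and near the vehicle level at 30 mg/kg. Of the 34, 19 were higher in mean over both doses, against 39.7% of all genes. On the brightest probe set of each gene, the treated samples of both doses did not separate from vehicle in any of the 34 members, against 0.608% of all genes. On the second probe set of Phyh they did, lying below vehicle.

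Each sample's deviation from the mean of all 15 arrays was averaged over the 34 members. These means ranged from -0.0916 to 0.142 at 10 mg/kg, from -0.0980 to 0.0517 at 30 mg/kg and from -0.0340 to 0.0563 in vehicle. Pxmp4, whose spread was the widest, weighs on such means. In sample 3 at 10 mg/kg the mean was -0.0916, while the median over the members was -0.0181. The medians ranged from -0.0181 to 0.112 at 10 mg/kg, from -0.0728 to 0.0216 at 30 mg/kg and from -0.0662 to 0.0494 in vehicle. The ranges overlapped for means and for medians. Sample 5 at 10 mg/kg was the highest, with 28 of 34 members above their own mean, and sample 4 at 30 mg/kg the lowest, with 11 of 34. The SD within groups ran from 0.0426 for Scp2 to 1.29 for Pxmp4, with a median of 0.118 over the members and 0.119 over all genes.

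No gene of the related lists was called either. Of 40 other genes of peroxisomal proteins 33 were tested and 0 were called at either dose, with median log2 differences of 0.01 at 10 mg/kg and -0.06 at 30 mg/kg. In mean, 17 of the 33 were higher than vehicle at 10 mg/kg (51.5%, against 41.8% of all genes) and 10 at 30 mg/kg (30.3%, against 38%), where 18 of the 34 members were higher. At an unadjusted p under 0.05, 3 were higher (9.09%, against 4.49% of all genes) and 3 lower (9.09%, against 8.79%) at 10 mg/kg. At 30 mg/kg 0 were higher (against 5.27%) and 1 lower (3.03%, against 10.8%). Of these, chosen after their values were seen, Agxt, which detoxifies glyoxylate, was at 1.21-fold and 1.11-fold the vehicle level, and Dhrs4, a carbonyl reductase, at 0.888-fold and 0.867-fold, with limma adjusted p between 0.216 and 0.450; each pair of values is given for 10 mg/kg and then 30 mg/kg.

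Ppara, the gene of the receptor itself, averaged 6.05 ± 0.17 at 10 mg/kg and 6.01 ± 0.19 at 30 mg/kg, against 6.22 ± 0.09 in vehicle (SD, n = 5 each). The vehicle mean lies above the filter threshold of 6.10 and the means of both doses below it. A gene can pass the filter through the group where it is high. The lower values of Ppara in treated samples are therefore not independent of the filter, and dim values are imprecise. Its log2 difference was -0.17 (-0.37 to 0.03) at 10 mg/kg and -0.21 (-0.41 to -0.01) at 30 mg/kg, with limma adjusted p = 0.450 and 0.283. Of 26 listed PPAR-alpha targets outside the peroxisome 23 were tested, and 0 were called in any comparison. At an unadjusted p under 0.05, 6 were higher (26.1%, against 4.49% of all genes) and 0 lower (against 8.79%) at 10 mg/kg. At 30 mg/kg 3 were higher (13%, against 5.27%) and 1 lower (4.35%, against 10.8%). In mean, 22 of the 23 were higher than vehicle at 10 mg/kg (95.7%, against 41.8% of all genes) and 11 at 30 mg/kg (47.8%, against 38%), and 20 were lower at 30 mg/kg than at 10 mg/kg (87%, against 54.4%). Their median log2 difference was 0.13 at 10 mg/kg, -0.02 at 30 mg/kg and -0.16 between the doses. These targets share samples and are not independent of each other, and their list was chosen with earlier results of these data known. The counts are therefore a description, and activity of the receptor was not tested.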

How the data were processed

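Liver RNA of 15 samples was measured on 15 Affymetrix rat arrays. The values are on the log2 scale, 1 per probe set, as the authors deposited them, already normalised. Per the submitters' processing notes, the tools were RMA, GCRMA (2.12.1) and limma (2.14.7), with no role or order stated. Such normalisation hides a change shared by most genes, and dim genes show compressed differences. Array medians lay between 6.08 and 6.12, correlations between arrays between 0.989 and 0.996, and 0 pairs of arrays were identical. No depth applies to arrays, and their number limits the precision.

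Of 31099 probe sets, 57 were controls, 20826 carried 1 gene symbol, 436 several and 9780 none. Of the probe sets with 1 symbol, the brightest that passed the filter stood for its gene, which left 9540 genes. All 37 peroxisome genes have the same symbol in the current annotation (GRCr8, for names and promoter windows only). A model with 1 mean per group was fitted to all 15 arrays (lmFit and eBayes of limma 3.58.1, R 4.3.3), with Benjamini-Hochberg adjustment across the 9540 genes. The procedure was also run on simulated data with independent genes, of which 200 were changed by 1.5-fold or more. Smaller differences, such as those of the members, were not simulated.

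The members and lists were chosen with earlier results of these data known. Per-array values were given for members called in any comparison, members whose samples of either dose did not overlap vehicle, and the 6 with the smallest pooled p. They were also given for Ehhadh, Pex11a, Cat and Abcd3, and for Pxmp4, chosen after its values were seen. Acaa1a, also planned, had no probe set with a single symbol and so no values. Other members were named by their role. Protein sequences were not used here, so targeting signals were not searched. Groups and replicate numbers came from the titles. Of 15 pairs of same-numbered samples 3 had deviations from their group means that correlated above 0.1 (range -0.0706 to 0.195), so the numbers were not taken as pairs. Alternatives were the filter, the choice of probe set, quantile normalisation, median centring, trend and robust options, the groups fitted, a replicate block, and each array left out.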

Additional observations from a re-analysis of the deposited data

Results flagged for a closer look

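Dixon's test was applied to 27 groups of 5 samples, those of the 9 members described by sample other than Pxmp4, which was not tested. In 3 of these groups, 1 sample stood apart from the other 4 at the 95% level. Chance flags about 1 in 20 groups. Nudt19 in sample 4 at 10 mg/kg had a log2 value of 9.43, where the other 10 mg/kg samples lay between 8.87 and 8.93. Decr2 in sample 2 at 30 mg/kg had 11.12, where the others lay between 11.28 and 11.33, and in sample 2 of vehicle 11.40, where the others lay between 11.51 and 11.55.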

How the results depend on the processing

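The count of peroxisome genes called was 0 in each comparison under every alternative run, including each of the 15 fits with 1 sample left out and the fit with the replicate number as a block. With that replicate block 4 members had an unadjusted p under 0.05 at 10 mg/kg, 3 at 30 mg/kg, 4 between the doses and 4 over both doses, and it changed no call of a member; only 3 of 15 samples correlated best with a sample of their own number. With 1 sample left out, the median log2 difference of the members ran from 0.0162 to 0.0471 at 10 mg/kg, from -0.0126 to 0.0159 at 30 mg/kg, from -0.0635 to -0.0218 between the doses and from -0.00124 to 0.0324 over both doses. Under the other settings it ran from 0.0266 to 0.0518, -0.0124 to 0.0337, -0.0581 to -0.0294 and 0.00776 to 0.0455, so its sign at 30 mg/kg and, with 1 sample left out, over both doses was not fixed. Each of these shifts was smaller than the spread between samples of a group, an SD of 0.0645 for the mean deviation of the members. That SD includes the wide spread of Pxmp4. It is also larger than the median differences themselves, so this comparison cannot show that they are stable. The difference of Nudt19 at 10 mg/kg ran from -0.58 to -0.41 and that of Phyh over both doses from -0.17 to -0.14 with 1 sample left out. The second probe set of Pex16 turned its difference between the doses to 0.04, beside -0.13, and that of Pex2 turned it to -0.06, beside 0.01. Among all genes, the count called moved more: 0 to 26 at 10 mg/kg, 0 to 5 at 30 mg/kg and 0 to 85 over both doses with 1 sample left out, 0 at 10 mg/kg and 3 over both doses with the block, and 3 at 10 mg/kg without a filter, beside 10, 0 and 14; the cause was not tested. Leaving out vehicle sample 5 gave the 85 and PF-04923503 sample 2 at 30 mg/kg the 26. A fit limited to the groups compared was not run for both doses together, since it holds all samples.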
